A study of Mus musculus with 4 samples.

Results

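Crabp1 and Crabp2 encode the cellular retinoic acid binding proteins, small cytosolic carriers that hold retinoic acid inside the cell. They were selected by name, as the rows called Crabp1 or Crabp2 in the 6 deposited pairwise tables, which gave 2 of the 235 named genes in those tables. Because the tables list called transcripts only, the members were chosen by a measured difference, so their levels and fold changes below are a description with no test.

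RNA came from E13.5 gonads of wild-type embryos of the CD1 mouse strain, dissected away from the neighbouring mesonephros. The gonads are treated here as testes. Each of 4 groups was represented by 1 library: Control, for which the labels give no treatment, ACE+ACE, exposed in the womb to acetaminophen, ASP+ACE, exposed to aspirin with acetaminophen, and IBU+ACE, exposed to ibuprofen with acetaminophen. The Control library carries the name EtOH inside the tables. The sources used here do not give doses, days of exposure or the number of embryos in a library, and with 1 library per group no difference has a replicate check. Levels are in FPKM, a count of sequenced fragments divided by transcript length and by the mapped fragments of the library, so that genes of unlike length can be compared, and the read depth behind each value is unknown.

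Retinoic acid, made from vitamin A by retinol and retinaldehyde dehydrogenases, enters the nucleus and binds receptors of the RAR and RXR families that switch target genes. CRABP2 carries the ligand to these receptors, whereas CRABP1 holds it in the cytosol and is linked to its breakdown by CYP26 enzymes. In the fetal gonad, retinoic acid induces Stra8 and entry of germ cells into meiosis in the ovary, and Cyp26b1 in the somatic cells of the testis removes it. Both carriers are also known from embryonic mesenchyme, including that of the limb bud.

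The coding sequences of the genes were compared first, since the levels of related genes can be read apart only where sequence reads can. Over 414 aligned coding bases, 293 were identical (70.8%). The longest run shared by the whole transcripts was 11 bases, against sequenced reads of 75 bases. The most alike stretch of 75 coding bases, at coding bases 151 to 225 of both genes, still differed at 11 positions. It is shown 5′ to 3′ from the GENCODE M21 transcripts, with the differing bases in capitals.
Crabp1: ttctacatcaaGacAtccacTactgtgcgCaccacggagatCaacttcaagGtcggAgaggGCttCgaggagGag
Crabp2: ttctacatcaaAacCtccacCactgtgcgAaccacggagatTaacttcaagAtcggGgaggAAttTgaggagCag

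On GRCm38, the deposited locus of Crabp1 was chromosome 9, 54764748 to 54773110, and that of Crabp2 was chromosome 3, 87948666 to 87953376, both on the plus strand. Each locus equalled the GENCODE M21 gene exactly and overlapped 0 other annotated genes on either strand. Both genes have 4 exons, with main transcripts of 802 bases (Crabp1) and 931 bases (Crabp2) that code for 137 and 138 amino acids. The nearest coding genes were Wdr61 and Ireb2 beside Crabp1 and Isg20l2 and Nes beside Crabp2, and 0 other listed transcripts lay within 1000000 bases of either gene.

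A RefSeq promoter sequence (GRCm38.p6) was matched for 1 of the 2 genes, Crabp1. The 250 bases before its start, chr9:54764498-54764747 on the plus strand, are shown because they were searched for the motif of the retinoid receptors. Capitals mark the GC box, GGGCGG on either strand, a site of the SP family of activators.
Crabp1 promoter: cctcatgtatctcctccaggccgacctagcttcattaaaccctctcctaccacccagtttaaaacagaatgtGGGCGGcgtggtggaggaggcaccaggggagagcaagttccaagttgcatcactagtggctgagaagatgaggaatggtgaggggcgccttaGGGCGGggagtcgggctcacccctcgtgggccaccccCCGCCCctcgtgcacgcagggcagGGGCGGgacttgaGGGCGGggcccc
The window held 5 GC boxes, and 32.7% of the 32851 promoter windows of the same length held at least 1. Its GC content was 63.6%, against a median of 52.4% over all windows. The retinoid receptor half-site AGGTCA was found 0 times on either strand, and 14.0% of all windows held it. The spaced pairs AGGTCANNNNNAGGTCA and AGGTCANNAGGTCA contain that half-site, so their 0 matches follow from its own. Each was present in 3 of all windows. Only these exact letters were searched for, so sites of another spelling or outside the 250 bases would be missed.

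Crabp1 and Crabp2 were both highest in the IBU+ACE library. The level of Crabp1 was 13.3 FPKM for IBU+ACE, 5.03 for Control, 4.13 for ASP+ACE and 3.75 for ACE+ACE. That of Crabp2 was 20.1 FPKM for IBU+ACE, 6.98 for Control, 6.65 for ASP+ACE and 5.69 for ACE+ACE. For both genes the order of the libraries was the same, IBU+ACE first, then Control, ASP+ACE and ACE+ACE. The other 3 libraries lay close together, with the highest level 1.34 times the lowest for Crabp1 and 1.23 times for Crabp2. IBU+ACE exceeded the highest of these 3, Control, 2.64-fold for Crabp1 and 2.88-fold for Crabp2. Whether the lower 3 differ beyond replicate spread cannot be known with 1 library each, and none of the tables between them lists either gene.

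**Figure D1:**
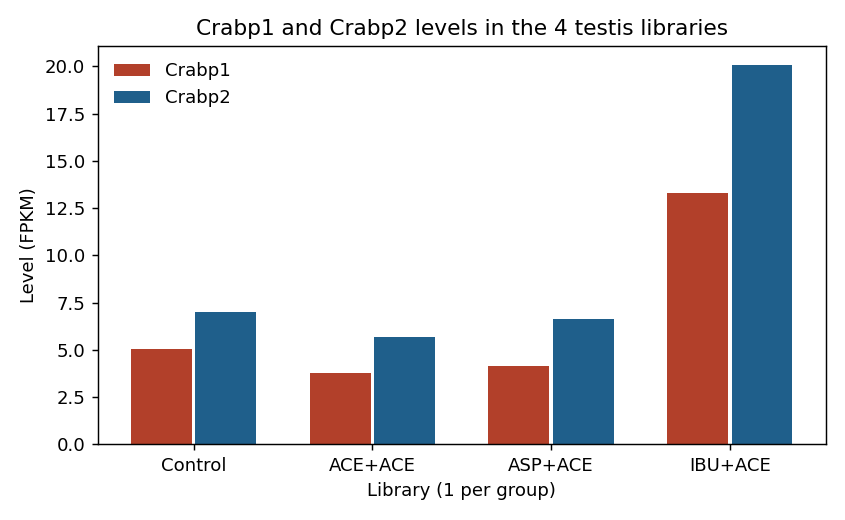
Bars give the FPKM level of Crabp1 and Crabp2 in each of the 4 libraries, 1 library per group, so there are no error bars. Both genes stand highest in IBU+ACE, at 13.3 and 20.1 FPKM, and between 3.75 and 6.98 FPKM elsewhere.

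Against Control, the authors' deposited table lists a log2 fold change of 1.40 for Crabp1 and 1.52 for Crabp2 in IBU+ACE. From ACE+ACE to IBU+ACE the authors' deposited table gives 1.82 for each gene. From ASP+ACE to IBU+ACE the authors' deposited table gives 1.69 for Crabp1 and 1.59 for Crabp2. These 3 comparisons share the IBU+ACE library, so they are not independent views of it. The authors' deposited tables give all rows a single q-value, 0.0310, which ranks no gene above another.

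Neither gene is listed in the remaining 3 tables, and a missing row means that no call was made, not that the levels were equal. The values taken from the other tables gave log2 differences from Control to ACE+ACE of -0.42 for Crabp1 and -0.30 for Crabp2. From Control to ASP+ACE they were -0.28 and -0.07. From ACE+ACE to ASP+ACE they were 0.14 and 0.22. All 6 of these differences were smaller in size than any of the 6 with IBU+ACE.

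The pair kept a near-constant proportion. In FPKM, Crabp2 was 1.51 times as high as Crabp1 for IBU+ACE, 1.39 times for Control, 1.61 times for ASP+ACE and 1.52 times for ACE+ACE. Crabp2 was therefore the higher of the pair in all 4 libraries, and the IBU+ACE ratio lay inside the range of the other 3.

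Within the tables, the fold changes of the carriers were near or below the median of the higher transcripts. Among the 127 transcripts higher in IBU+ACE than in Control and above 0 in both, Crabp2 ranked 73 and Crabp1 ranked 78 by log2 fold change, with a median of 1.71 and a range from 0.52 to 7.33 in the authors' deposited table. In the same gene order the ranks were 91 and 89 of 180 from ACE+ACE to IBU+ACE. From ASP+ACE to IBU+ACE they were 91 and 87 of 146. Both belong to the 85 transcripts listed as higher in IBU+ACE than in all 3 other libraries. By level in IBU+ACE they ranked 7 (Crabp2) and 11 (Crabp1) of these 85, whose median was 2.75 FPKM. By the ratio of IBU+ACE to the highest other library they ranked 53 (Crabp2, 2.88) and 58 (Crabp1, 2.64) of the 81 above 0 in all libraries, below the median ratio of 3.37.

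**Figure D2:**
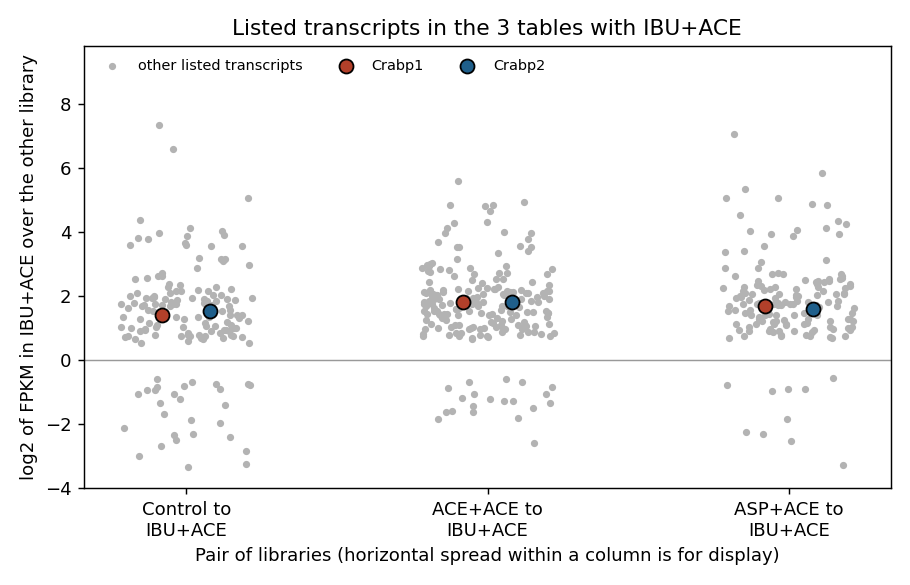
Each point is a transcript listed in 1 of the 3 tables with IBU+ACE and above 0 in both libraries, and the vertical axis is the log2 of its FPKM level in IBU+ACE over the other library. Crabp1 and Crabp2 lie between 1.40 and 1.82. From Control and from ASP+ACE both lie below the median of the higher transcripts, and from ACE+ACE both lie close to it.

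Other genes of the retinoid pathway were looked for in a list of 34. It holds 7 carriers and transporters, 8 genes of synthesis and storage, 3 Cyp26 genes of breakdown, 6 receptors and 10 target genes. In each of the 3 tables with IBU+ACE, 2 of the 34 were listed as higher and 0 as lower, and the 2 were Crabp1 and Crabp2. The calls by which these genes were selected are the same calls, so nothing is read from that count. If all 726 rows came from 1 adjustment over the 6 tables, about 74945 transcripts were tested in each, of which 0.201% were called higher from Control to IBU+ACE, 0.276% from ACE+ACE and 0.213% from ASP+ACE. Here and below, list members are counted as genes and these shares as transcripts, so they are unlike measures. The median log2 fold change of the 2 listed members from Control was 1.46. Over all listed transcripts above 0 FPKM in both libraries, higher and lower together, it was 1.40, and over the higher ones alone 1.71.

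None of the 32 other pathway genes has a row in any of these 3 tables. Among them are Aldh1a1, Aldh1a2 and Aldh1a3, which make retinoic acid, Rdh10, which makes its precursor, and Cyp26a1, Cyp26b1 and Cyp26c1, which break it down. Rara, Rarb, Rarg and the RXR genes, as well as Stra8 and Rec8, which retinoic acid induces in germ cells entering meiosis, are also missing. Rbp4 and Stra6, the blood carrier of retinol and its receptor, have no row either. Their levels are therefore not known here. In the 3 tables without IBU+ACE, 0 of the 34 were listed, where the estimated share called in either direction was 0.0894% from Control to ACE+ACE, 0.0587% from Control to ASP+ACE and 0.032% from ACE+ACE to ASP+ACE.

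The carriers belong to the family of intracellular lipid binding proteins, of which 14 genes were looked for. Only Fabp1, the liver fatty acid binding protein, was listed beside them, and in 1 table. It had 0.473 FPKM in ACE+ACE and 3.64 FPKM in IBU+ACE. Between these libraries 8 of 13 liver genes were listed as higher and 0 as lower, against an estimated 0.276% of all transcripts called higher. From Control to IBU+ACE 0 of the 13 were listed, where 0.201% of all transcripts were called higher and 0.0454% lower. From Control to ACE+ACE 10 were listed as lower, where 0.0894% of all were called in either direction. The liver list was chosen with earlier results of these data known, so nothing is read from these counts. The part of liver RNA in the Fabp1, Crabp1 and Crabp2 values was not tested. The summed level of the 6 liver genes with a value in every library was 226.9 FPKM for IBU+ACE, 214.8 for Control, 134.9 for ASP+ACE and 59.8 for ACE+ACE. Of these 6 genes, 4 were highest in IBU+ACE. Alb (albumin) was at 52.6 FPKM for Control and 77.3 FPKM for IBU+ACE, and Afp (alpha-fetoprotein), the largest part of the sum, was at 130.2 and 112.6 FPKM.

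Some genes of limb, cartilage and skin were listed as higher in the same library as the carriers. Of 35 such genes, 17 were listed as higher from Control to IBU+ACE, 0 as lower and the rest not at all. An estimated 0.201% of all transcripts were called higher between these libraries. The list was chosen with earlier results of these data known, so nothing is read from that count. The median log2 fold change of the listed members was 2.61. Over all transcripts listed as higher between these libraries and above 0 FPKM in both, it was 1.71. Summed over the 13 genes with a value in every library, their level was 126.2 FPKM for IBU+ACE, 22.3 for Control, 16.7 for ASP+ACE and 18.3 for ACE+ACE. All 13 were highest in IBU+ACE, as were 81 of all 92 named transcripts with a level above 0 in the 4 libraries. A gene has such values mostly through calls against IBU+ACE, so nothing is read from that share. Evx2, a posterior homeobox gene, was listed at 0 in ASP+ACE and at 1.82 FPKM in IBU+ACE. In bulk RNA, more cells of a type and more RNA per cell cannot be told apart, and the part of such tissue in the Crabp1 and Crabp2 values was not tested.

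The members of that list with the highest levels were Col2a1, Twist1, Msx1 and Col11a1. Twist1, a mesenchymal transcription factor, had 17.9 FPKM for IBU+ACE, 5.20 for Control, 4.30 for ASP+ACE and 3.74 for ACE+ACE. Its order of libraries was that of the carriers, which 30 of the 92 named transcripts above 0 in all libraries had. Col2a1, the main cartilage collagen, had 36.3, 2.92, 1.10 and 2.25 FPKM in the same order. Msx1, a homeobox gene of limb mesenchyme, had 12.7, 0.788, 0.676 and 0.659 FPKM. Col11a1, a fibrillar collagen, had 12.1, 6.04, 5.31 and 5.88 FPKM. Xist, the RNA of the inactive X chromosome of female cells, had 0.954, 0.710 and 0.668 FPKM in Control, ACE+ACE and ASP+ACE, and 11.1 FPKM in IBU+ACE, at a deposited locus that also covers its antisense partner Tsix. The part of female cells in the Crabp1 and Crabp2 values was not tested.

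**Figure D3:**
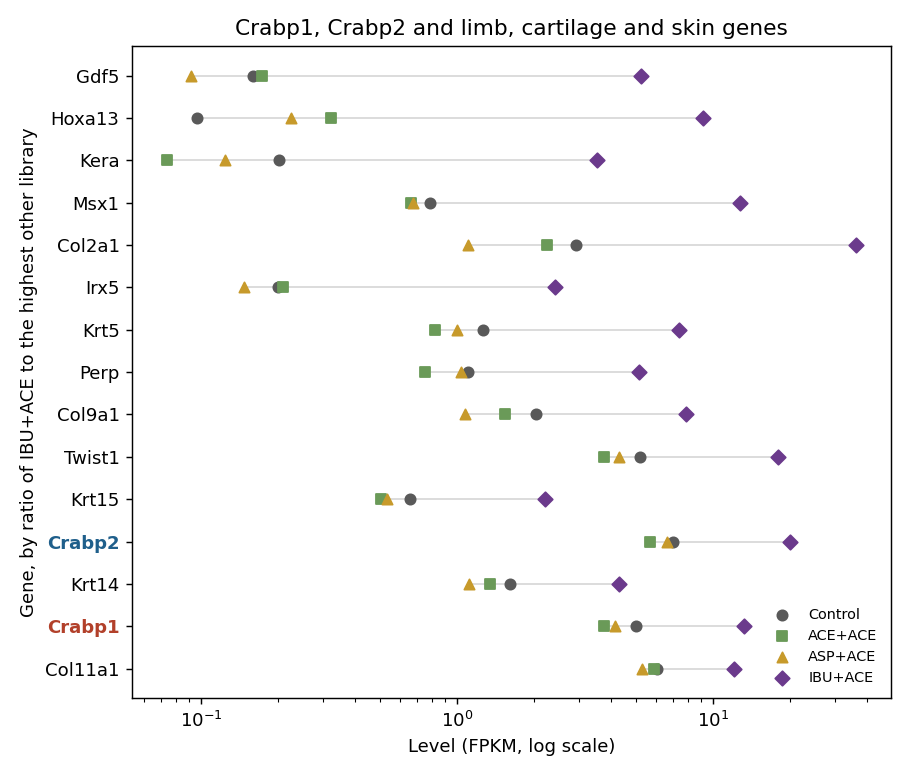
Points give the FPKM level, on a log axis, of Crabp1, Crabp2 and the 13 limb, cartilage and skin genes with a value in all 4 libraries, ordered by the ratio of IBU+ACE to the highest other library. The IBU+ACE point is the highest of every row, and outside IBU+ACE the carriers, Twist1 and Col11a1 have levels of 3.74 FPKM or more, where Msx1 has 0.788 FPKM or less.

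Of the testis cell lists, Sox9 and Cst9, expressed in Sertoli cells, were 2 of 10 Sertoli genes listed from Control to IBU+ACE, both higher. Sox9, also a cartilage gene, was at 5.98 FPKM for Control and 10.04 FPKM for IBU+ACE, and Cst9 was at 63.3 and 114 FPKM. Of 14 Leydig and interstitial genes 1 was listed, Lum, an interstitial matrix proteoglycan, with 11.3 FPKM for Control and 18.6 FPKM for IBU+ACE. Of 15 germ cell genes 2 were listed as higher and 3 as lower. The 3 lower were Sox2, Lefty1 and Sohlh2, at 12.0, 9.37 and 8.30 FPKM for Control and 6.39, 4.53 and 4.71 for IBU+ACE. The 2 higher were Dnmt3l and Tdrd9, at 1.24 and 2.37 FPKM for Control and 4.41 and 5.94 for IBU+ACE. Over all transcripts an estimated 0.201% were called higher and 0.0454% lower between these libraries. These lists too were chosen with earlier results of these data known, so nothing is read from their counts. The mesonephros, neural and meiosis lists had 0 genes in any table. Of 8 muscle genes, 0 were listed from Control to IBU+ACE. As higher in IBU+ACE, 2 were listed from ACE+ACE (0.276% of all transcripts) and 3 from ASP+ACE (0.213%). From Control, 1 was listed as lower in ACE+ACE and 1 in ASP+ACE, where 0.0894% and 0.0587% of all were called in either direction. Since uncalled genes have no row, genes such as Amh, of Sertoli cells, and Ddx4, of germ cells, could not be used to check the tissue.

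The genes with the most similar pattern were sought among the 92 named transcripts with a level above 0 in all 4 libraries. Each log2 level was set against that gene's own mean, and the distance between 2 genes was the root mean square of the 4 differences. The distance between Crabp1 and Crabp2 was 0.076, against a median of 0.38 from either gene to the others. Crabp2 was the second nearest to Crabp1, after Ube2ql1, a ubiquitin conjugating enzyme, at 0.075. Crabp1 was the third nearest to Crabp2, after Ppl (periplakin, a protein of the epidermal envelope) at 0.064 and Tmem30b (a subunit of lipid flippases) at 0.070.

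The 6 nearest genes of each carrier had 4 in common besides the carriers themselves. They were Ppl, Tmem30b, Rprm, a cell cycle arrest gene, and Tnfaip6, which binds hyaluronan. The level of Rprm was 5.50 FPKM for IBU+ACE, 2.06 for Control, 1.92 for ASP+ACE and 1.40 for ACE+ACE. Tnfaip6 had 2.75, 1.08, 1.03 and 0.946 FPKM in the same order. Osr1, a transcription factor of embryonic mesenchyme, was near Crabp2 with 4.89, 1.45, 1.49 and 1.32 FPKM. Ube2ql1 had 1.82, 0.718, 0.520 and 0.537 FPKM. In each library all these genes had lower levels than the carriers, down to 0.282 FPKM for Ppl in ACE+ACE.

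The likeness rests on the IBU+ACE library. Of the 92 transcripts, 81 were highest there, and 30 had the same order of all 4 libraries as the carriers. Over the other 3 libraries alone, 0 of the 6 genes nearest to Crabp1 and 3 of the 6 nearest to Crabp2 were retained, and Crabp2 ranked 11 among the genes nearest to Crabp1. Leaving out Control retained 3 of the 6 nearest to Crabp1, and leaving out ACE+ACE retained 3 of the 6 nearest to Crabp2. After 1 FPKM was added to each level, 2 of the 6 nearest to Crabp1 and 1 of the 6 nearest to Crabp2 were retained, and Crabp2 became the nearest to Crabp1. All candidates were themselves listed by the authors, so the search covers called transcripts only.

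**Figure D4:**
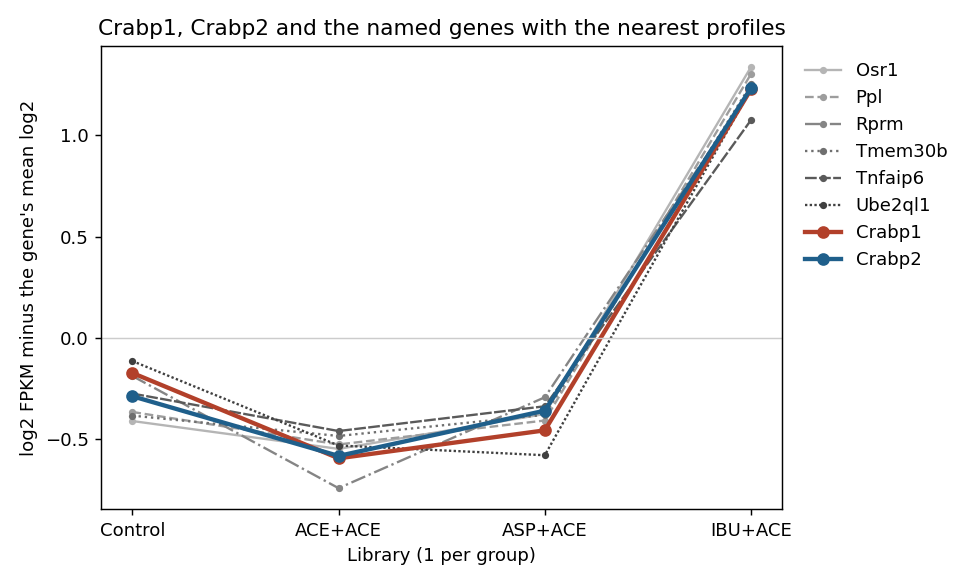
Lines join the log2 FPKM level of each gene in the 4 libraries after its own mean was subtracted, for Crabp1, Crabp2 and the named genes nearest to either. The lines run close together, with the carriers at 1.23 in IBU+ACE and between -0.60 and -0.17 in the other 3 libraries.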

How the data were processed

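Per the submitters' processing notes, the tools named are TopHat2 2.1, Bowtie2 2.2.6, Cufflinks 2.2.1, SAMtools 1.3, bcl2fastq 2.17 and FastQC, and the build GRCm38, with no role or setting given. The deposited values were read as FPKM from the layout of the tables, since the file headers give no unit. The authors' log2 fold changes and p-values stand beside them in the deposited tables, per the file headers. All 726 rows of the 6 tables were marked significant, with 1 p-value (5e-05) and 1 q-value (0.0310), so uncalled transcripts are absent.

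Levels were combined across tables, and 0 repeated values disagreed. Deposited log2 fold changes equalled the recomputed ones within 1.09e-05. The name EtOH was matched to Control by the table names and as the name left over. Stranded libraries were made, per the labels' protocols; the sources used here do not say whether counting used strand.

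No test was run, since each group holds 1 library. The members and the 15 gene lists were chosen with earlier results of these data known; 1 gene is not reported here and was left out of the retinoid and lipid binding lists. Named genes were the carriers, listed members of the retinoid and lipid binding lists, the 6 nearest to each carrier, and up to 4 members per marker list with the highest level; the other marker genes named were chosen after their values were seen. Alternatives were pseudocounts of 1 and 0.1 FPKM, a minimum of 1 FPKM, the carrier list alone and the largest absolute difference as the distance. The search for similar genes was tested on 200 simulated profiles over 4 libraries, among which it recovered 6 of 6 planted neighbours. The planted neighbours were near copies and the other profiles independent random draws, so that outcome was close to fixed in advance. It checks the code only, and nothing about the genes named here is read from it. Python 3.11.15, pandas 2.3.3, numpy 2.4.6, Biopython 1.88 and matplotlib 3.10.9 were used.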

Additional observations from a re-analysis of the deposited data

How the results depend on the processing

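No paired analysis was possible because each group holds 1 library. With 1 FPKM added to both levels, the log2 fold changes of Crabp1 were 1.25 from Control to IBU+ACE, 1.59 from ACE+ACE and 1.48 from ASP+ACE, and those of Crabp2 were 1.40, 1.66 and 1.46. With 0.1 FPKM added they were 1.39, 1.80 and 1.66 for Crabp1 and 1.51, 1.80 and 1.58 for Crabp2. None of these, nor the differences between the other 3 libraries, changed direction under either addition. The counts of listed retinoid genes were the same with a minimum of 1 FPKM and with the carrier list alone. Of the 6 nearest genes, 2 (Crabp1) and 1 (Crabp2) were shared with the list in the text after 1 FPKM was added, 5 and 6 with the largest absolute difference, and 6 and 6 with a minimum of 1 FPKM. Leaving out each library in turn, an alternative chosen after seeing the data, gave 0 to 4 shared genes for Crabp1 and 3 to 4 for Crabp2. The depth behind the FPKM values is unknown, so no interval was computed.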
